A study of Mus musculus with 7 samples.

Results

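Receptors through which astrocytes sense noradrenaline, adenosine, ATP, dopamine and endocannabinoids were measured as RNA in amygdala cells enriched for astrocytes. The 9 genes described here were taken by symbol from the 35976 rows of a gene count table. They were the adrenergic receptors Adra1a, Adra1b, Adra2a and Adrb1, the purinergic receptors Adora1, P2ry1 and P2rx7, the dopamine receptor Drd1 and the cannabinoid receptor Cnr1. All 9 were present, and 8 passed the filter on low counts and could be tested.

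The samples came from the amygdala of male C57BL/6J mice in which adeno-associated virus carried Cas9 under GfaABC1D, a short promoter active in astrocytes. In the sgEgfr group (3 libraries) the guide RNA was directed at Egfr, which encodes a receptor for epidermal growth factor. In the sgRosa group (4 libraries) it was directed at the Rosa locus and served as the control. The minimum time listed for expression was 2 weeks for all libraries. Every mouse of both groups carried Cas9 and went through restraint on 7 days, conditioning to fear on 1 and extinction on 3, so no unstressed group stood beside them. No source used here gave their age, the share of astrocytes that took up the virus or the number of mice behind each library. Cells were dissociated with papain and bound to magnetic beads through ACSA-2, a surface antigen of astrocytes, and libraries were made from 5 ng of RNA. The labels did not say that libraries came from separate mice, and p-values reflect only how far these samples spread, which may be technical.

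In astrocytes, adrenergic receptors of the alpha-1 class couple to Gq proteins and release calcium from internal stores, and astrocytes of behaving mice respond to noradrenaline in this way. Receptors of the alpha-2 class couple to Gi proteins and lower cAMP, whereas beta receptors couple to Gs proteins and raise it. ATP acts on metabotropic and ion channel receptors, and enzymes on the cell surface break it down to adenosine, which acts on receptors of its own. Endocannabinoids released by neurons can reach Gi-coupled receptors on astrocytes.

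Libraries held 5852870 to 22579222 counts, so that 3 counts, taken as the limit of detection, stood for 0.513 CPM (counts relative to the scaled total of a library) in the shallowest and 0.133 CPM in the deepest. Between sgRosa 3 and sgRosa 4 the counts differed by about as much as sampling alone gives, with a chi-square of 1.04 per degree of freedom against 14.8 to 158 in the other 20 pairs. Both were added into a single sample named sgRosa 3+4, so each group had 3 samples. Egfr, whose RNA need not fall after small Cas9 edits, had levels of 10.7, 5.69 and 8.03 CPM in the sgEgfr samples, against 13.2, 2.87 and 10.6 CPM in sgRosa 1, 2 and 3+4, and these ranges overlapped. The bead-enriched cells were not astrocytes alone. All 18 astrocyte markers had 3 or more counts in every library, and together they took 0.965% to 1.34% of counts in sgEgfr and 0.608% to 1.51% in sgRosa, with the lowest share in sgRosa 2. Oligodendrocyte markers took 8.13% to 14.4% in sgEgfr and 7.23% to 10.8% in sgRosa. Log2 fold changes were positive, without a call, for 10 of 11 endothelial, 12 of 12 microglia, 14 of 15 neuron and 8 of 8 ependymal markers tested. They were also positive for 6 of 8 oligodendrocyte precursor markers, 12 of 18 astrocyte markers and 8 of 10 heat shock genes. Among neuron subtypes, 5 of 6 striatal-type and 4 of 5 interneuron markers were positive. Of oligodendrocyte markers 6 of 12 were positive, and of pericyte and smooth muscle markers 3 of 7, beside 52.9% of all genes. Every sgEgfr sample was above the sgRosa samples for 4 endothelial, 4 neuron, 0 microglia and 0 ependymal markers, and for 3.76% of all genes. The ependymal share was 0.116% in sgEgfr 3 but 0.00765% and 0.00272% in sgEgfr 1 and 2, against at most 0.0411% in sgRosa. The microglia share was highest in sgEgfr 2, at 0.0448%, against 0.0160% to 0.0329% in the other samples. Signs of markers raised in the same sample are not independent. In RNA from such a mixture, fewer cells of a type and less RNA per cell cannot be told apart.

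The promoter sequences of the highest, the second and the most variable of the tested receptors, and of the receptor that was found in a single library, are shown so that the motif matches can be read in place. Each line gives the 250 bases before the gene's start in the RefSeq table for GRCm38.p6, 5′ to 3′ on the strand of the gene, for Adora1 (chr1:134235458-134235707, minus strand), P2rx7 (chr5:122643677-122643926, plus strand), P2ry1 (chr3:61002535-61002784, plus strand) and Drd1 (chr13:54055659-54055908, minus strand). The RefSeq starts are not always those of the GENCODE loci used for positions elsewhere. By GENCODE, the windows of P2rx7 and Drd1 reach into their own genes. Capitals mark the motifs searched on both strands, which did not overlap each other in these windows.
Adora1: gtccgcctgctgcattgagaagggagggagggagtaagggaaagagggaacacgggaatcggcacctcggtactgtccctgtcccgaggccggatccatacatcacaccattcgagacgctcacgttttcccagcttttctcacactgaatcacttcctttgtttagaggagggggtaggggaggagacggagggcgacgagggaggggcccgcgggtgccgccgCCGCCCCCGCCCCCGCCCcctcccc
P2rx7: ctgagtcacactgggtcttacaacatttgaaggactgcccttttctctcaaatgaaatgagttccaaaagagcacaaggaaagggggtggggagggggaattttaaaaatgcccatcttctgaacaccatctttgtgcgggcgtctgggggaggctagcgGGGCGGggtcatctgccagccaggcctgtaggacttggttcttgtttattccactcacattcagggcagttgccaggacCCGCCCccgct
P2ry1: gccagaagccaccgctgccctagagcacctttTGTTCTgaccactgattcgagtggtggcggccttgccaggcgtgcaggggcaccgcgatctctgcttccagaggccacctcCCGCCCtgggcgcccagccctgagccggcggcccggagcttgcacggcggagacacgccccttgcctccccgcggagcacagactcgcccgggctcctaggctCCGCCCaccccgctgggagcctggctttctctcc
Drd1: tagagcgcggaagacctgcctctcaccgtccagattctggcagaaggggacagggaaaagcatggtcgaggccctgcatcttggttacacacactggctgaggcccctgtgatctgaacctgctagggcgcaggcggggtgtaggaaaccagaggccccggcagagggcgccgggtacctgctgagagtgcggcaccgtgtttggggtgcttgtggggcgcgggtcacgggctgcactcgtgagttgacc
The motifs were the GC box GGGCGG, the TATA box TATAAA, the cAMP response element TGACGTCA and AGAACA, the core of a glucocorticoid receptor element. Adora1 had 3 GC boxes, P2rx7 had 2 and P2ry1 had 2 with 1 AGAACA, whereas the window of Drd1 held none of the 4 motifs. GC boxes occurred in 32.7% of 32817 mouse promoter windows of this length, TATA boxes in 12.4%, cAMP response elements in 1.55% and AGAACA in 16.1%. Of the other members in the table, Cnr1 had 5 GC boxes, Adrb1 had 1, Adra2a had 1 beside 1 TATA box, and Adra1b had none of the motifs. The Adra2a window lies wholly inside the GENCODE locus of that gene. A match describes the letters and is not a bound site.

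Of the 9 receptors, 8 were detected in every library at 3 or more counts, and the same 8 also had 10 or more. Levels were divided by exon length to set different genes beside each other. The annotation used for counting was not given, so the fit of these lengths was not tested. Per kilobase of exon, Adora1 stood far above the rest. Its mean over the 6 samples was 44.8 ± 4.59 CPM per kilobase (SD), higher than 95.6% of genes with a count and a known length. P2rx7 followed at 4.85 ± 1.24 CPM per kilobase and Adra2a at 2.26 ± 0.831.

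Adrb1 (1.24 ± 0.455), Adra1b (1.13 ± 0.411), P2ry1 (0.953 ± 0.522) and Adra1a (0.834 ± 0.308 CPM per kilobase) formed a group of similar level, each above the next in only 3 of 6 samples. Their order depended on the lengths. Before division, Adra1a had a mean of 7.28 CPM, above Adrb1 (4.21), P2ry1 (4.09) and Adra1b (3.82 CPM). Cnr1 (0.364 ± 0.0897) lay below Adra1a in 6 of 6 samples, and Drd1 came last at 0.0760 ± 0.146 CPM per kilobase. Only between Adora1 and P2rx7 did the ranges of neighbours in this order not overlap. Adora1 alone gave 76.6% to 83.1% of all counts of the 9 genes in a sample, and P2rx7 gave 6.59% to 13.2%.

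**Figure D1:**
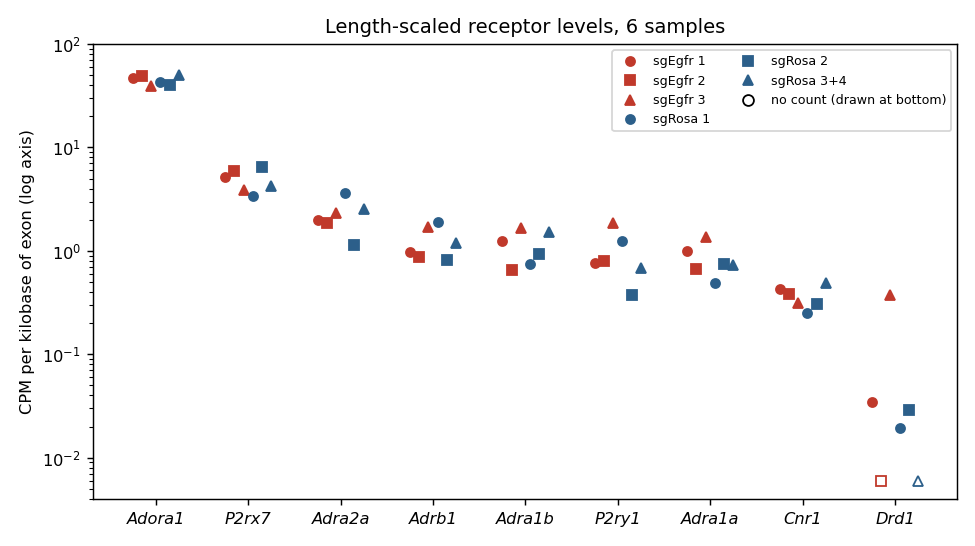
Level of each of the 9 receptors per kilobase of exon (CPM per kilobase, log axis) in the 6 samples. Adora1, at 44.8 CPM per kilobase on average, is separate from all others, and the ranges of the receptors from P2rx7 down overlap with those of their neighbours.

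For no tested receptor was a difference between the guides called. Of 8 tested, 0 were called by edgeR at an adjusted p under 0.05 (adjusted p = 0.997 for each), against 0 of all 14936 genes (0%). At an unadjusted p under 0.05 there were 0 of the 8 and 401 of all genes (2.68%) with edgeR. DESeq2 and limma-voom also called 0 genes, with 565 and 418 genes and 0 members at an unadjusted p under 0.05. The samples of the guides overlapped for 8 of 8 receptors, where 3.76% of all genes had every sgEgfr sample above and 3.85% every sgEgfr sample below the sgRosa samples. The log2 fold change of sgEgfr over sgRosa was positive for 6 and negative for 2, with a median of 0.09, beside 52.9% positive and a median of 0.02 over all genes tested. A missed threshold does not show equal levels, and the intervals below give what these samples allow.

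Adra1a, which encodes the alpha-1A receptor coupled to Gq, had a positive log2 fold change that was not called. It lies on chromosome 14 (66635251 to 66771168, plus strand, GRCm38) and has 8728 exonic bases. Its level was 8.67, 5.88 and 11.96 CPM in sgEgfr 1 to 3, against 4.30, 6.47 and 6.41 CPM in sgRosa 1, 2 and 3+4. Both sgEgfr 1 and 3 stood above every sgRosa sample, but sgEgfr 2 lay within the sgRosa range. The means were 8.84 ± 3.04 CPM in sgEgfr and 5.73 ± 1.24 CPM in sgRosa (SD, n = 3 each), a log2 fold change of 0.63 (SE 0.35, 95% confidence interval -0.19 to 1.45). Within the summed sample, sgRosa 3 (77 counts, 7.79 CPM unscaled) was above sgRosa 4 (24 counts, 4.10 CPM unscaled) for this gene.

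Adra1b, the gene of the alpha-1B receptor and likewise coupled to Gq, was at 4.24, 2.22 and 5.59 CPM in sgEgfr and 2.54, 3.18 and 5.14 CPM in sgRosa 1, 2 and 3+4. The highest and the lowest of these values both belonged to sgEgfr, so the sgRosa range fell inside the sgEgfr range. The log2 fold change was 0.15 (SE 0.45, interval -0.91 to 1.21) between means of 4.02 ± 1.69 CPM in sgEgfr and 3.62 ± 1.36 CPM in sgRosa. The gene has 3382 exonic bases on chromosome 11 (43774606 to 43901210, minus strand). The patterns of Adra1a and Adra1b over the samples are compared below.

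Adra2a, whose product couples to Gi and lowers cAMP, spread more in the sgRosa group. It was at 9.69, 8.95 and 11.3 CPM in sgEgfr, against 17.5, 5.53 and 12.4 CPM in sgRosa 1, 2 and 3+4. All 3 sgEgfr samples lay between the highest (sgRosa 1) and the lowest (sgRosa 2) sgRosa sample. The means were 9.98 ± 1.20 CPM in sgEgfr and 11.8 ± 6.03 CPM in sgRosa (SD, n = 3 each), a log2 fold change of -0.24 (SE 0.41, interval -1.19 to 0.71). Per kilobase it was the highest of the 4 adrenergic members, with 4832 exonic bases on chromosome 19 (54044151 to 54048982, plus strand).

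Adrb1, which encodes the beta-1 receptor that raises cAMP through Gs, was at 3.29, 2.94 and 5.76 CPM in sgEgfr and 6.41, 2.77 and 4.06 CPM in sgRosa 1, 2 and 3+4. The sgEgfr samples again fell between sgRosa 2 and sgRosa 1, the same pair that bounded Adra2a. The log2 fold change was -0.14 (SE 0.44, interval -1.16 to 0.89). Its locus is also on chromosome 19 (56722199 to 56733113, plus strand).

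Adora1, the gene of the Gi-coupled A1 adenosine receptor, was the steadiest member. It was at 273, 282 and 226 CPM in sgEgfr, against 251, 234 and 291 CPM in sgRosa 1, 2 and 3+4. The groups covered nearly the same range, with the lowest value in sgEgfr 3 and the highest in sgRosa 3+4. Means were 260 ± 30.1 CPM in sgEgfr and 258 ± 29.3 CPM in sgRosa (SD, n = 3 each), a log2 fold change of 0.01 (SE 0.17, interval -0.39 to 0.41). This was the narrowest interval of the 8. Its biological coefficient of variation, the replicate spread beyond counting noise, was 0.176, and 7.38% of tested genes had a lower value, beside a median of 0.320 over all of them.

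Adora1 lies on chromosome 1 (134199223 to 134235431, minus strand). Of its 5785 exonic bases, 1162 (20.1%) are shared with Mybph on the opposite strand, and the strand setting of the counting was not given, so reads there cannot be assigned with certainty. Mybph itself had 0 to 8 counts in a library, against 1642 to 5171 for Adora1. Per kilobase Adora1 was above all 12 microglia markers and 6 of 18 astrocyte markers, and below all 12 oligodendrocyte markers.

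P2ry1, a Gq-coupled receptor for ADP, was the most variable of the tested receptors. Its level was 3.29, 3.40 and 7.94 CPM in sgEgfr, against 5.35, 1.62 and 2.92 CPM in sgRosa 1, 2 and 3+4. sgEgfr 3 stood above all others and sgRosa 2 below all others, while the other 4 samples mixed. Means were 4.88 ± 2.66 CPM in sgEgfr and 3.30 ± 1.90 CPM in sgRosa, a log2 fold change of 0.57 (SE 0.55, interval -0.72 to 1.86), and without sgEgfr 3 the log2 fold change was 0.025. Its coefficient of variation was 0.534, higher than that of 88.7% of tested genes. The gene lies on chromosome 3 (61002795 to 61008982, plus strand) and shares 992 of 4291 exonic bases (23.1%) with the antisense gene Gm37035, which had 0 to 3 counts.

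P2rx7, an ATP-gated cation channel, was the second most abundant member. It was at 30.8, 35.6 and 22.9 CPM in sgEgfr, against 20.4, 38.9 and 25.1 CPM in sgRosa 1, 2 and 3+4. sgRosa 2 was highest and sgRosa 1 lowest, and every sgEgfr sample lay between them. The means of 29.8 ± 6.41 CPM in sgEgfr and 28.1 ± 9.65 CPM in sgRosa gave a log2 fold change of 0.08 (SE 0.28, interval -0.57 to 0.73). It lies on chromosome 5 (122643911 to 122691432, plus strand), with 5970 exonic bases.

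Cnr1, the gene of the CB1 cannabinoid receptor, was low but present in all libraries, with 44, 38 and 46 counts in sgEgfr 1 to 3 and 23, 38, 30 and 20 counts in sgRosa 1 to 4. In scaled units these were 2.79, 2.48 and 2.01 CPM in sgEgfr and 1.62, 1.98 and 3.17 CPM in sgRosa 1, 2 and 3+4. The sgEgfr samples lay inside the range of the sgRosa samples. The log2 fold change was 0.10 (SE 0.39, interval -0.82 to 1.02). Cnr1 is abundant in some neurons, and neuron markers took 0.0489% to 0.0613% of counts in sgEgfr and 0.0344% to 0.0526% in sgRosa, with Slc17a7 at 0 in 1 sample. Of 15 tested neuron markers, 14 had positive log2 fold changes (median 0.56), 0 were called by edgeR, and 4 had an unadjusted p under 0.05 (2.68% of all genes). Every sgEgfr sample was above the sgRosa samples for 4 of the 15 (3.76% of all genes), not all of them the same genes. Their part in the level of Cnr1 was not tested. The gene is on chromosome 4 (33924593 to 33948831, plus strand).

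Drd1, the Gs-coupled D1 dopamine receptor, was detected in a single library. It had 2, 0 and 31 counts in sgEgfr 1 to 3, against 1, 2, 0 and 0 counts in sgRosa 1 to 4. The 31 counts in sgEgfr 3 stood for 1.37 CPM unscaled, with an exact 95% Poisson interval of 0.933 to 1.95 CPM that covers counting error only. In the other 6 libraries the gene was below the limit of 3 counts, which does not show that it was absent. The upper ends of their Poisson intervals ran from 0.216 CPM (sgEgfr 2) to 0.630 CPM unscaled (sgRosa 4), below the interval of sgEgfr 3. It did not pass the filter and was not tested.

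The library in which Drd1 was found also had high values of other sparse receptors. Of 28 receptor genes that had a count but failed the filter, Drd1 among them, 11 were highest in sgEgfr 3, the deepest library. Another 6 were highest in sgEgfr 1 and 4 in sgEgfr 2. In sgRosa 1, 2 and 3+4 there were 2, 2 and 3. The same count over all genes that failed the filter was not made, so it is not known whether receptors differ from other sparse genes. Chosen after its values were seen, Npy2r, a neuropeptide Y receptor, had 127 counts in sgEgfr 3. The markers of striatal-type projection neurons, a cell type that can carry D1 receptors, took 0.00868%, 0.00959% and 0.0140% of counts in sgEgfr 1 to 3. In sgRosa 1, 2 and 3+4 they took 0.00699%, 0.00591% and 0.0121%, with Pdyn at 0 in 2 samples. Most of this share was Ppp1r1b, at 62.1, 88.9 and 118 CPM in sgEgfr and 55.5, 38.0 and 104 CPM in sgRosa. The other markers did not agree. In sgEgfr 3, Pde10a (7.90 CPM) and Rgs9 (4.85 CPM) were above sgEgfr 1 and 2. Tac1 (1.35 CPM) and Penk (0.393 CPM) were below them. Tmem212 was the only ependymal marker without a count in some sample, in 1 of 6. Ependymal markers took 0.116% in sgEgfr 3 and at most 0.00765% in the other sgEgfr samples, against at most 0.0411% in sgRosa. The part of these cells in the Drd1 counts was not tested.

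**Figure D2:**
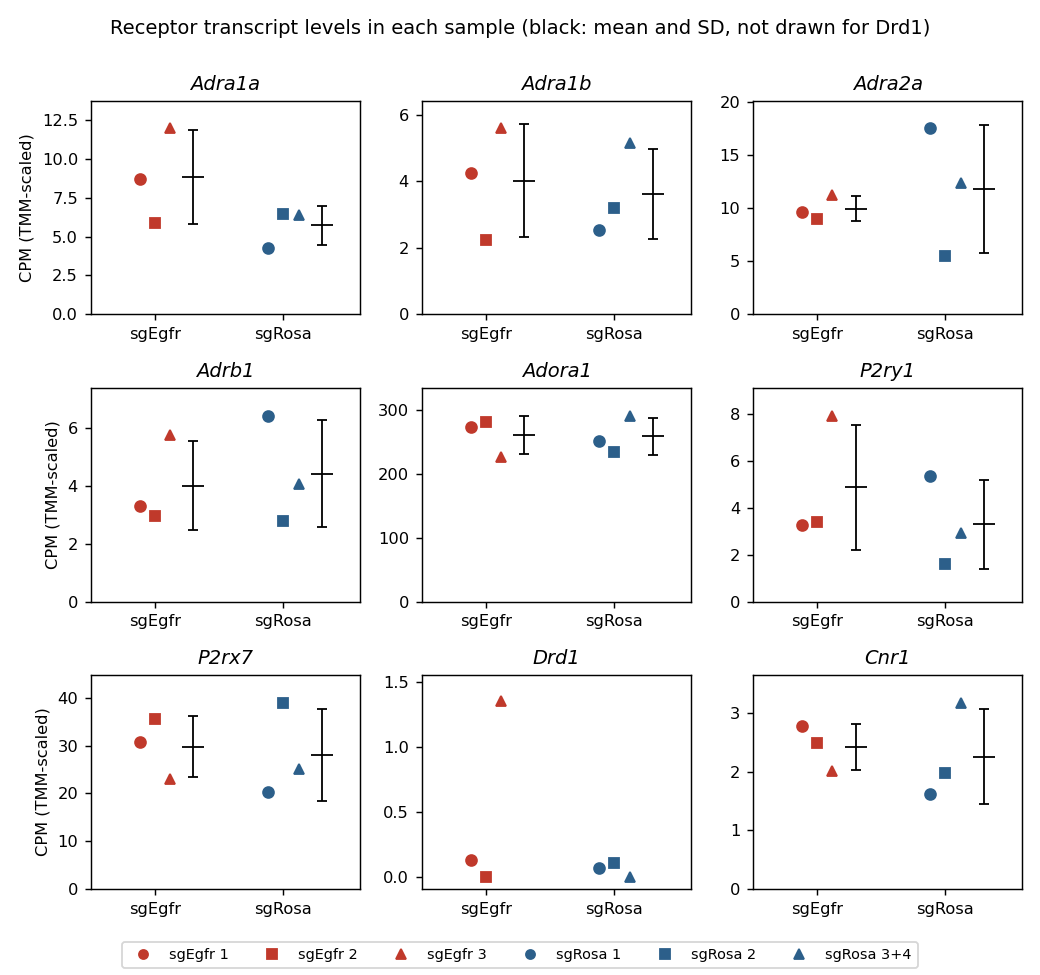
Level of each receptor in each sample (CPM, linear axes that differ between panels), sgEgfr left and sgRosa right, with the mean and SD in black except for Drd1. The groups overlap for the 8 tested receptors, and Drd1 is raised in sgEgfr 3 alone, at 1.35 CPM after scaling.

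**Figure D3:**
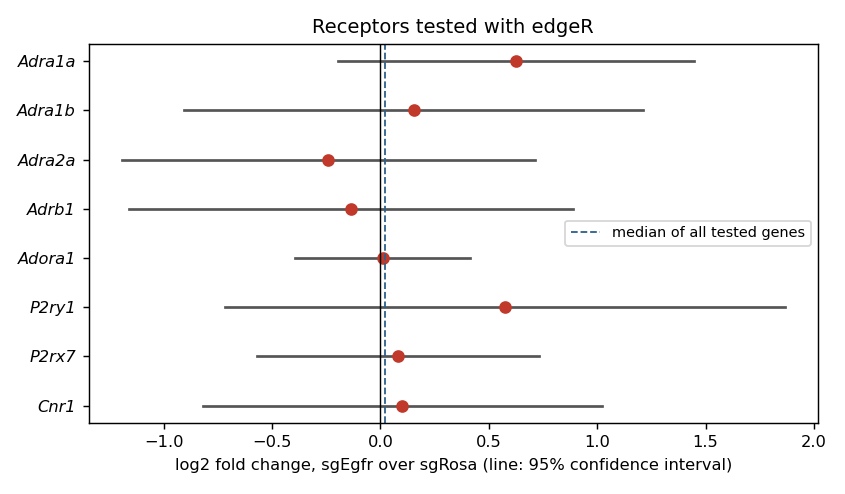
Log2 fold change of sgEgfr over sgRosa for the 8 tested receptors, with 95% confidence intervals from edgeR. Every interval includes 0, and that of Adora1 (-0.39 to 0.41) is the narrowest.

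Levels of several receptors moved between samples in patterns that did not follow the guide. Patterns were compared as log2 CPM centred on each gene's mean over the 6 samples, with the root mean square difference as the measure, where 0 means the same pattern. P2rx7 lay closest of the receptors to a marker list. Its difference from the mean profile of 12 oligodendrocyte markers was 0.13, against 0.34 from a flat profile, and the next list, microglia markers, was at 0.29. P2rx7 departed from its mean by 0.13, 0.34 and -0.30 in sgEgfr 1 to 3 and by -0.47, 0.46 and -0.17 in sgRosa 1, 2 and 3+4. The oligodendrocyte markers departed by -0.02, 0.51 and -0.41 in sgEgfr and by -0.29, 0.37 and -0.17 in sgRosa, so that both were high in sgEgfr 2 and sgRosa 2 and low in sgEgfr 3 and sgRosa 1.

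Set against marker counts, P2rx7 had 0.222 to 0.316 counts for every 1000 oligodendrocyte marker counts in sgEgfr and 0.266 to 0.378 in sgRosa. For every 1000 astrocyte marker counts it had 1.85 to 3.30 in sgEgfr and 1.54 to 6.68 in sgRosa, where sgRosa 2, the sample with the lowest astrocyte share, was highest. Adora1 had 18.2 to 26.1 counts for every 1000 astrocyte marker counts in sgEgfr and 18.97 to 40.1 in sgRosa, again highest in sgRosa 2. Its own pattern varied by 0.14 around the mean, and every marker list was further from it than a flat profile was.

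Among the adrenergic members, the smallest differences were those of Adra2a with Adrb1 and of Adra1a with Adra1b. Adra2a and Adrb1 differed from each other by 0.27 (flat profile 0.50 and 0.45), with both highest in sgRosa 1 and lowest in sgRosa 2 among the sgRosa samples. Adra1a and Adra1b differed by 0.33 (flat profile 0.45 and 0.48), both highest in sgEgfr 3, where P2ry1 was highest too. Their departures were unlike in sgRosa 3+4 (-0.11 for Adra1a, 0.50 for Adra1b) and in sgEgfr 2 (-0.23 and -0.67). The sample sgRosa 2, which was lowest for Adra2a, Adrb1 and P2ry1, also had the lowest shares of astrocyte, neuron and interneuron markers. In sgRosa 2 the mitochondrial share of counts was lowest too, at 6.10%, against 8.48% to 14.6% in the other samples, with sgRosa 1 highest. The parts of cell mixture and of mitochondrial share in these levels were not tested. The smallest difference was that of Adora1 and Cnr1 at 0.22, but a flat profile was nearer to Adora1 (0.14) than Cnr1 was. The farthest pair was P2rx7 and P2ry1 at 0.98. The interneuron marker list was the nearest one to Adra2a (0.30, with astrocyte markers next at 0.36, and a flat profile at 0.50), to P2ry1 (0.46, flat profile 0.69) and to Adra1b (0.46, hardly nearer than the flat profile at 0.48). The striatal-type list was nearest to Adra1a (0.38, flat profile 0.45) and Cnr1 (0.21, flat profile 0.31), and the pericyte and smooth muscle list to Adrb1 (0.35, flat profile 0.45). Of the 8 interneuron markers, 5 passed the filter. These likenesses rest on 6 samples that differ in depth and cell mixture, and they are descriptions.

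Among all tested genes, the patterns most like those of the receptors belonged to genes of varied function. With 14936 genes compared over 6 samples, close matches can arise without any relation. No background was computed for them, so they are listed as descriptions only. Hmox2, a heme oxygenase, and Bin1, a membrane-bending protein found in oligodendrocytes and other cells, were nearest to P2rx7 at 0.04 each. Plcb4, a phospholipase that Gq activates, and the RING finger gene Rnf11 were nearest to Adrb1, at 0.06 and 0.07. Thy1, a surface glycoprotein of neurons, and Tmem38a, an ion channel of internal stores, were nearest to Adra2a at 0.07 and 0.08. Cnr1 had the granule protein gene Scg2 at 0.06 and Trappc5 at 0.08, and Adora1 had Tmem205 and Pym1 at 0.03 each. Adra1a had the cytokine gene Ctf1 at 0.12 and the nuclear envelope gene Syne2 at 0.13. Adra1b had Ahdc1 at 0.07 and Tmem177 at 0.09, and P2ry1 had Rab3d at 0.16 and Lmo1 at 0.18.

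**Figure D4:**
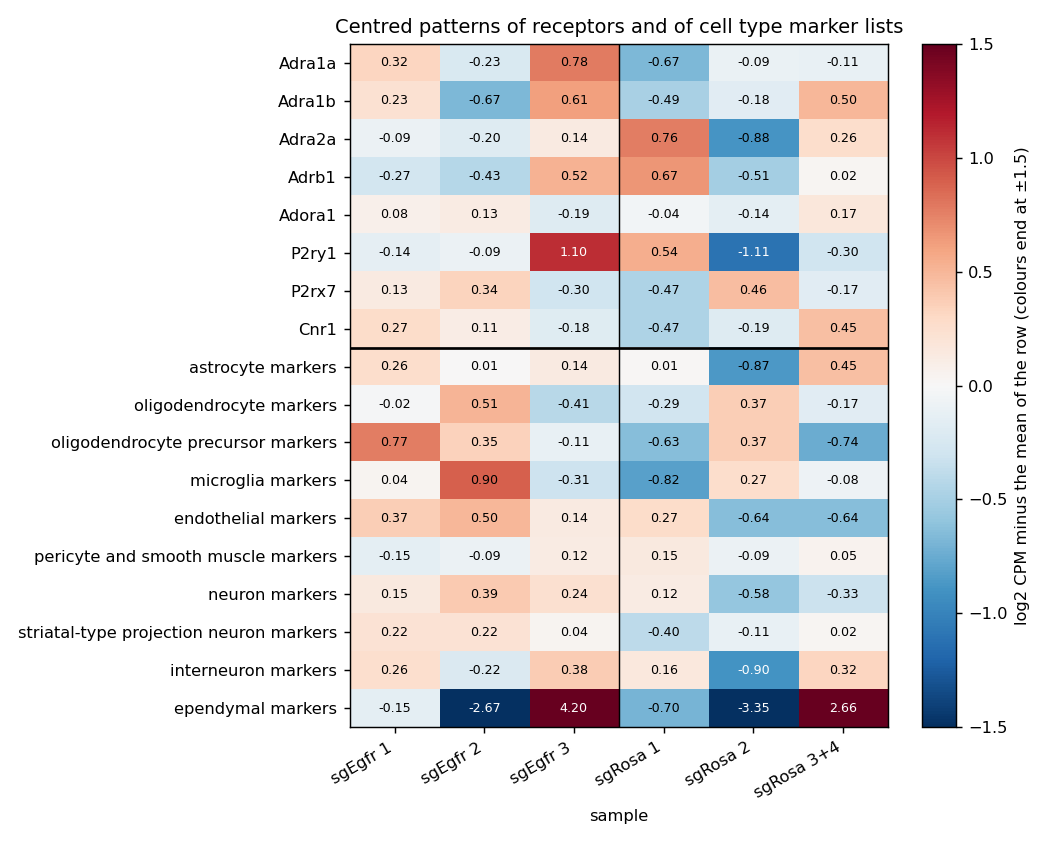
Centred log2 CPM of the 8 tested receptors (upper rows) and of marker lists (lower rows) in 3 sgEgfr samples (left) and 3 sgRosa samples (right). P2rx7 and the oligodendrocyte markers are both high in sgEgfr 2 and sgRosa 2, and P2ry1 runs from -1.11 in sgRosa 2 to 1.10 in sgEgfr 3.

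The 9 receptors were part of 59 neuromodulator receptor genes examined. Of these, 24 had 3 or more counts in every library, 16 of them among the 50 others, and 29 passed the filter. Adora1 ranked first of the 59 per kilobase. Ednrb, an endothelin receptor of astrocytes and other cells, came next at 38.2 ± 13.9 CPM per kilobase, and its range overlapped that of Adora1. P2ry12, a marker of microglia (7.35 ± 2.98), the adenosine receptor gene Adora2b (6.58 ± 2.33) and P2rx4 (6.06 ± 1.14 CPM per kilobase) stood above P2rx7 on average. The other 4 dopamine receptor genes and the other 2 cannabinoid receptor genes all failed the filter, with Drd2 and Gpr55 the highest of each. P2ry4 and P2rx2 had no count in any library.

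**Figure D5:**
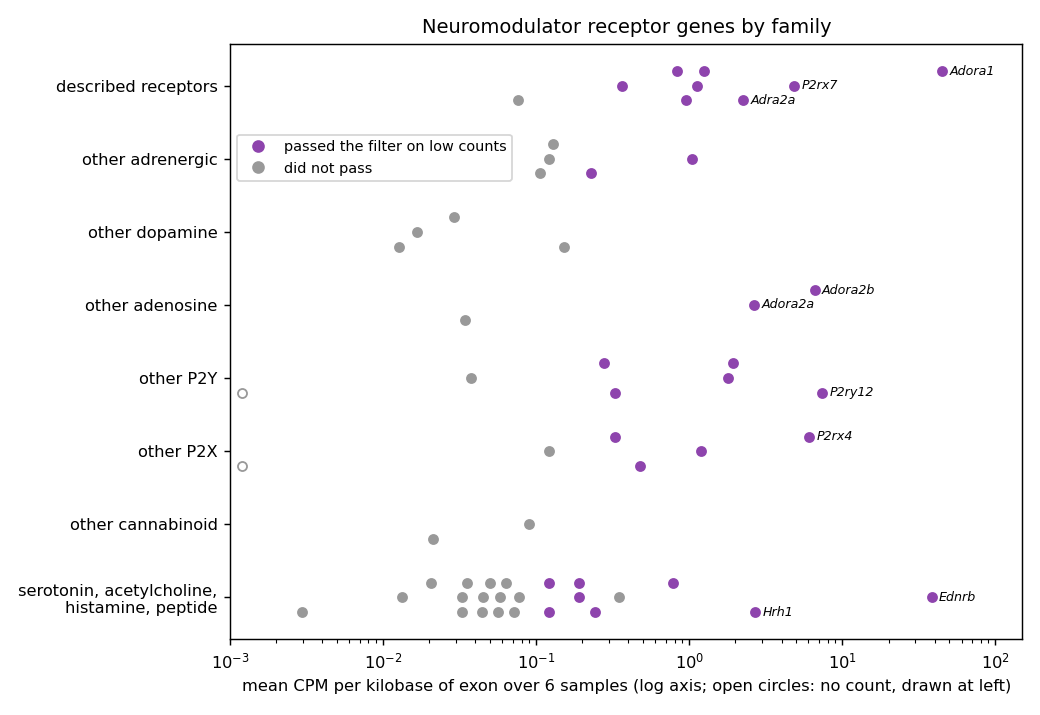
Mean level per kilobase of exon (log axis) of the 59 receptor genes over the 6 samples, by family, with genes that passed the filter on low counts in purple and the others in grey. Some of the highest are named. Adora1 and Ednrb (38.2 CPM per kilobase) lie apart from all other receptors.

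Of the 50 other receptors, 21 were tested and 0 were called over all genes. Among the other adrenergic receptors, Adra2b had a log2 fold change of -0.40 (SE 0.89). The adenosine receptor Adora2a was at 6.36 ± 1.01 CPM in sgEgfr and 9.84 ± 2.76 CPM in sgRosa (SD, n = 3 each). Its sgEgfr samples were all below its sgRosa samples, as for 3.85% of all genes, at a log2 fold change of -0.63 (SE 0.30, edgeR adjusted p = 0.997). Adora2b was at 0.40 (SE 0.35).

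Of 7 other metabotropic nucleotide receptors, 5 were tested, 3 positive and 2 negative, with a median of 0.38. P2ry2, a receptor for ATP and UTP, was at 1.64 ± 0.568 CPM in sgEgfr and 0.554 ± 0.159 CPM in sgRosa. Its samples did not overlap between the guides, and its log2 fold change was 1.54 (SE 0.51, edgeR adjusted p = 0.997). Its counts were low, with 31, 15 and 45 in sgEgfr 1 to 3. In sgRosa 1 to 4 they were 6, 14, 5 and 3, at or near the limit of 3 counts. P2ry14, P2ry12 and P2ry13 were at -0.28 (SE 0.24), 0.38 (SE 0.37) and 0.51 (SE 0.59). Of 6 other ATP-gated channels, 4 were tested with a median of 0.47, among them P2rx5 (0.90, SE 0.74), P2rx6 (1.04, SE 0.95), P2rx4 (-0.19, SE 0.20) and P2rx3 (0.04, SE 0.65). The 8 tested of 23 serotonin, acetylcholine, histamine and peptide receptors had a median of 0.18, with Chrm1 at 1.14 (SE 0.63), Htr2c at -0.67 (SE 0.70), Hrh2 at 0.62 (SE 0.66) and Hrh3 at -0.33 (SE 0.44).

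Genes that act downstream of the receptors were also not called. Of 12 genes of Gq signalling and calcium release, 10 were tested, 2 positive and 8 negative, with a median log2 fold change of -0.10 beside 0.02 over all genes. The alpha subunit gene Gna11 was at -0.34 (SE 0.21), the phospholipase genes Plcb3 and Plcb1 were at 0.47 (SE 0.38) and -0.45 (SE 0.41), and the store channel Itpr3 was at 1.30 (SE 0.76). All 20 genes of Gs, Gi and cAMP signalling were tested, 8 positive and 12 negative, with a median of -0.11. Prkaca, the catalytic subunit of protein kinase A, was at -0.67 (SE 0.36), Gnao1 at -0.30 (SE 0.18), and the adenylyl cyclases Adcy9 and Adcy5 at -0.32 (SE 0.20) and -0.27 (SE 0.22).

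Of 8 genes of receptor desensitisation, 3 were positive and 5 negative, with a median of -0.07. Rgs2, which shortens Gq signals, was at 10.04 ± 2.59 CPM in sgEgfr and 4.99 ± 0.870 CPM in sgRosa (SD, n = 3 each). Its samples did not overlap, and the log2 fold change of 1.01 (SE 0.31) was not called (edgeR adjusted p = 0.997). Rgs4, which acts on Gi and Gq proteins, was at -0.31 (SE 0.24), the receptor kinase Grk6 at 0.14 (SE 0.27) and the arrestin Arrb1 at -0.13 (SE 0.35).

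Of 10 genes of nucleotide release, breakdown and transport, 8 were tested, 6 positive, with a median of 0.21. They included the nucleoside transporter Slc29a1 (0.39, SE 0.23), the adenosine deaminase Ada (0.32, SE 0.35), the ATP-degrading Entpd2 (0.44, SE 0.64) and the channel Panx1 (0.39, SE 0.65). All 7 endocannabinoid genes were tested, 2 positive and 5 negative (median -0.06), with Abhd6 at 0.22 (SE 0.24), Daglb at 0.14 (SE 0.23), Napepld at -0.11 (SE 0.23) and Dagla at -0.22 (SE 0.51).

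Of 11 catecholamine genes, 8 were tested, 7 positive and 1 negative, with a median of 0.11. The monoamine transporter Slc29a4 was at 4.19 ± 3.04 CPM in sgEgfr and 1.20 ± 0.452 CPM in sgRosa, without overlap, at a log2 fold change of 1.81 (SE 0.60, edgeR adjusted p = 0.997). The sgEgfr samples held 3.04, 1.90 and 7.64 CPM of Slc29a4, and without sgEgfr 3 the log2 fold change was 1.04 (SE 0.57). P2ry2, Rgs2 and Slc29a4 were the only genes of these receptor and pathway lists with an unadjusted edgeR p under 0.05, beside 2.68% of all genes tested. For each of them every sgEgfr sample was above the sgRosa samples, as for 3.76% of all genes. The other catecholamine genes with the smallest p were the vesicular transporter Slc18a2 (-0.40, SE 0.33), the tyrosine hydroxylase gene Th (0.80, SE 1.28) and Ddc (0.25, SE 0.39). The value of Th rested on sgEgfr 2, with 2.03, 23.9 and 1.22 CPM in sgEgfr against 0.352, 7.62 and 7.56 CPM in sgRosa 1, 2 and 3+4, and without that sample its log2 fold change was -1.70 (SE 1.13).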

How the data were processed

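Gene counts of 7 RNA-seq libraries were analysed, 3 with sgEgfr and 4 with sgRosa. The authors deposited these as raw whole-number counts of reads. The submitters' processing notes name mm10, featureCounts 2.0.1, STAR 2.7.5c, edgeR 3.42.4 and fastp 0.23.2. Annotation, strand setting and handling of multi-mapping reads are not given in the sources used here, which leaves overlapping, antisense and near-identical genes uncertain.

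Each pair of libraries was compared by chi-square (genes of 20 or more counts), and sgRosa 3 and 4 were summed. Genes were filtered with filterByExpr (minimum count 10, minimum total 15), scaled with TMM and tested for the guide with edgeR 4.0.16 (glmQLFit, glmQLFTest; R 4.3.3), with Benjamini-Hochberg adjustment over 14936 genes and a threshold of 0.05. Gene CPM values are TMM-scaled unless called unscaled, and shares are of total counts. Lengths and positions are GENCODE M21 exon unions (GRCm38), which matched 26763 of 35976 symbols. Patterns used log2 CPM with a prior count of 2. Promoters are from RefSeq (8 of 9 members matched, not Adra1a).

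The receptors, 25 lists of 246 genes and the tests were chosen with earlier results of these data known. All 9 receptors are named; of each receptor and pathway list, up to 4 genes with the smallest unadjusted p, or, with none tested, the highest counts; and for each tested receptor the 2 genes and the marker list with the most similar pattern. Of the genes this rule names, 1 is not reported here. The fit was also run on simulated counts, from which no value is used here. Alternatives used other scaling, filters, DESeq2 1.42.0, limma-voom (limma 3.58.1), covariates, a replicate block and left-out libraries. Counting intervals cover counting error only.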

Additional observations from a re-analysis of the deposited data

How the results depend on the processing

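No receptor and no gene was called at an adjusted p under 0.05 under any of the 22 alternative fits, and the lowest adjusted p of a receptor over them was 0.526. Of 176 log2 fold changes of receptors in these fits, 148 kept their sign and 28 did not. Adra1a was positive in every fit (0.25 to 1.20). With astrocyte marker counts as the library size, which moved the median of all genes to -0.28 against 0.02, Adra1b was at -0.11, Adora1 at -0.25, P2rx7 at -0.38 and Cnr1 at -0.13; of these 4, only P2rx7 was below that median. With the 7 libraries as separate samples, Adra1b was at -0.0065, Adora1 at -0.028 and Cnr1 at -0.033. Adora1 was at -0.031 with total counts alone, at -0.040 with the astrocyte score, at -0.043 with the neuron score and at -0.0012 with the oligodendrocyte score as a covariate. P2ry1 was at -0.36 with the neuron score. In a fit added after seeing the data, without both sgRosa 2 and sgEgfr 3, Adra1b was at -0.25 and P2ry1 at -0.30, and P2rx7 (0.55) and Adra2a (-0.68) had an unadjusted p under 0.05. The causes were not tested.

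Leaving out 1 library, the summed pair, or sgRosa 2 and sgEgfr 3 together gave log2 fold changes of 0.34 to 0.83 for Adra1a, -0.25 to 0.49 for Adra1b, -0.68 to 0.16 for Adra2a, -0.75 to 0.23 for Adrb1, -0.070 to 0.11 for Adora1, -0.30 to 1.106 for P2ry1, -0.10 to 0.55 for P2rx7 and -0.087 to 0.42 for Cnr1. Without sgEgfr 2, Adra1a had an unadjusted edgeR p of 0.0491.

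Whether the replicate numbers pair the samples was not settled. The deviations of samples with the same number correlated at -0.11, 0.52 and 0.55, against -0.58 to 0.26 for samples with different numbers. The main fit did not use the numbers. With the replicate block, 0 genes were called (705 at an unadjusted p under 0.05), and the log2 fold changes were 0.59 for Adra1a, 0.12 for Adra1b, -0.11 for Adra2a, -0.12 for Adrb1, 0.01 for Adora1, 0.61 for P2ry1, 0.11 for P2rx7 and 0.14 for Cnr1. Drd1 lay below 3 counts in 6 of 7 libraries and was not tested, and low counts limit Cnr1, Adra1b, Adrb1 and P2ry1. Of 82 other tested genes of the receptor and pathway lists, 54 changed the sign of their log2 fold change when a library or the summed pair was left out.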
